A study of Mus musculus with 8 samples.

Results

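The genes described here are 10 early-response genes: the Fos family (Fos, Fosb, Fosl1 and Fosl2), the Jun family (Jun, Junb and Jund), and Egr1, Atf3 and Dusp1. They were taken by symbol from the 18860 genes of each deposited table, and all 10 had a row and were tested among 14679 genes. The set was selected on the difference in deposited values between genotypes, which was already known for these libraries. The differences of these genes between genotypes are therefore a description. Each SE and 95% interval is for the difference of means, from a variance that pools both genotypes and also draws on other genes. Neither gives the spread within a genotype. Counts of calls from fits over all genes stand beside the background without being read as support. RNA came from bone marrow leukaemia cells, labelled acute myeloid, of moribund C57BL/6 mice. In the 11B3-deleted group (4 libraries), with the genotype label 11B3fl/p53fl;shNf1;shMll3;Vav1-Cre, the floxed 11B3 segment, which includes Trp53, is on 1 copy of chromosome 11 and the floxed Trp53 allele is on the other. In the p53-loss-only group (4 libraries), labelled p53fl/fl;shNf1;shMll3;Vav1-Cre, both copies carry the floxed Trp53 allele. Both groups therefore share Trp53 recombination, the hairpins against Nf1 and Mll3, and Vav1-Cre, a recombinase expressed across blood cells. None of the 10 genes lies on chromosome 11.

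AP-1 is a dimer of basic leucine zipper proteins, in which Jun proteins pair with one another or with Fos proteins and Fos proteins need a Jun partner. Fos, Fosb, Jun, Junb, Egr1, Atf3 and Dusp1 are immediate-early genes, transcribed within minutes of growth factor, cytokine or stress signals through Ras-MAPK and stress kinases, and their RNAs are short-lived. In myeloid cells Fos, Jun and Egr1 are known for their induction during monocytic differentiation. Dusp1 encodes a phosphatase that switches off the same MAP kinases.

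The labels name lines without saying that each is a separate animal, so the spread between libraries may be partly technical. Recovered reads numbered 30502718 to 35719495 per library. Trp53 ranged from 189.2 to 392.5 where 11B3 was deleted, versus 300.2 to 577.1 with p53 loss alone. Its log2 difference of -0.45 (SE 0.32) missed the threshold (limma adjusted p = 0.996), and reads from unrecombined exons of the floxed allele count too, so Trp53 does not check the labels. Nf1 ranged from 404.8 to 718.6 versus 550.4 to 820.3 and Mll3 from 2957.4 to 3420.9 versus 2655.8 to 4268.8, and as both groups carry both hairpins, their knockdown has no control here. Myeloid marker RNA was present in every library. Sfpi1, the gene of the myeloid factor PU.1, was at 6669.7 to 8199.6, and Mpo, a granule enzyme, at 75329 to 414041.1. Such levels do not show what share of a library was myeloid. One 11B3-deleted library, replicate 3, held far more RNA of B cell markers than the rest, with a summed level of 58774 over 11 genes against 405 to 2201 in the other 7. Another 11B3-deleted library, replicate 1, held the most RNA of erythroid markers, with a summed level of 165393 over 12 genes. The other 7 had 2776 to 44596. Values below are the deposited ones, which are reads scaled for library size plus 1.

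Stretches upstream of 5 of the genes are shown because these genes had positive correlations with one another within genotypes, described below, none of which passed after adjustment. Jund had such correlations too but is not shown: its RefSeq window, in which no motif matched, ends upstream of the gene's start in GENCODE M21. Each is the 150 bases before the RefSeq start in build GRCm38.p6, written 5′ to 3′ on the gene's strand, with capitals marking matches to the motifs searched.
Fos promoter, chr12:85473740-85473889, plus strand: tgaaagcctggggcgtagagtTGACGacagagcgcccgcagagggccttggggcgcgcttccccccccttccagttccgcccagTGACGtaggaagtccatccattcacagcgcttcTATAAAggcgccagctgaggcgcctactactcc
Fosb promoter, chr7:19310046-19310195, minus strand: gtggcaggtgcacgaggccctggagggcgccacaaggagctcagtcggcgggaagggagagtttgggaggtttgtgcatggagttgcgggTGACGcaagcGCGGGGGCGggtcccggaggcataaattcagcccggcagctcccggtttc
Jun promoter, chr4:95052223-95052372, minus strand: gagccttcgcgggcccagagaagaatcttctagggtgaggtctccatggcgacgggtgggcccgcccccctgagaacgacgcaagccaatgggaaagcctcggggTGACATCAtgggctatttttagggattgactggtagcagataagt
Junb promoter, chr8:84978749-84978898, minus strand: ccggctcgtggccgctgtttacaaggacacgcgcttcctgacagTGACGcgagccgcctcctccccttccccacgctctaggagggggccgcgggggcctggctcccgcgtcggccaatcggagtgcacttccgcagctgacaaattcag
Dusp1 promoter, chr17:26508473-26508622, minus strand: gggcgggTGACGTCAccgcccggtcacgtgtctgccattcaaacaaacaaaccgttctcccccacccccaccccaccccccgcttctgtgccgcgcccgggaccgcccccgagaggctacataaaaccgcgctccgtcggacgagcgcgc

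The search covered the 250 bases before the start, on both strands, in 32841 RefSeq promoters, of which 8 belonged to these genes. Egr1 and Fosl1 had no entry. The 5-letter TGACG, which is the first part of the cyclic AMP response element, was in 5 of the 8 (Fos, Fosb, Junb, Atf3 and Dusp1) and in 17.8% of all promoters. The full palindrome TGACGTCA, which overlaps TGACG, was in Dusp1 alone among the 8 and in 1.55% of all. TGACATCA, the AP-1-like site through which Jun is known to act on its own gene, was in Jun and in 2.93% of all. GCGGGGGCG or GCGTGGGCG, the site of Egr proteins, was in Fosb and Fosl2 and in 3.06% of all, and TATAAA was in Fos and in 12.4%. The classical AP-1 letters, TGACTCA or TGAGTCA, were in none of the 8 and in 4.46% of all, and the CArG box of serum response factor was in none of the 8 and in 1.47%. A match is a string of letters in this window and not a measured binding site. A motif without a match here may still lie outside the window.

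The Fos family is taken first, since its members supply the Fos side of the AP-1 dimer. Fos had values of 1443, 1450.5, 1707.9 and 1415.7 in the 11B3-deleted leukaemias 1 to 4 (replicate order), versus 18910.6, 7770.6, 8683.2 and 3237.2 in p53-loss-only leukaemias 1 to 4. The 11B3-deleted libraries lay within 1.21-fold of one another, whereas the p53-loss-only libraries spanned 5.84-fold, and the groups did not overlap. The log2 difference, 11B3-deleted minus p53-loss-only, was -2.42 (SE 0.44, 95% interval -3.42 to -1.42), or 18.7% of the p53-loss-only geometric mean.

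Fosb, a close relative that is induced with Fos, had the largest difference of the 10 and, at 26.8-fold, the widest spread between p53-loss-only libraries. Fosb had values of 102.5, 38.7, 44.6 and 17 in 11B3-deleted leukaemias 1 to 4, the last resting on 18 reads, versus 2114.9, 562.5, 78.9 and 242.7 with p53 loss alone. Replicate 3 of the p53-loss-only group lay below replicate 1 of the 11B3-deleted group, so the groups overlapped. The log2 difference was -3.22 (SE 0.95, 95% interval -5.38 to -1.07), with -2.41 without p53-loss-only replicate 1 and -3.99 without p53-loss-only replicate 3.

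Fosl1 and Fosl2 encode the Fos-related proteins Fra-1 and Fra-2. Fosl1 was a low gene of 11 to 54 reads per library. It was at 22.5, 29, 11.7 and 19.6 in the 11B3-deleted leukaemias 1 to 4, versus 35, 45, 60.2 and 30.8 in p53-loss-only leukaemias 1 to 4, without overlap (log2 difference -1.07, SE 0.41, 95% interval -2 to -0.14). Fosl2 was at 2496.4, 6383.5, 4642.8 and 5596.9 against 4496.8, 4809.2, 4457.3 and 5756.8. Its groups overlapped throughout, and the log2 difference was small at -0.11 (SE 0.28, 95% interval -0.73 to 0.52); it became 0.18 without 11B3-deleted replicate 1.

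In the Jun family, 1 of the 3 genes, Jun, had no overlap between the genotypes. Of all tested genes 1.23% were lower in the 11B3-deleted group without overlap. Jun was at 3065.6, 2668.7, 2632.6 and 814.9 in the 11B3-deleted leukaemias 1 to 4, versus 22553.9, 12614.5, 3290.6 and 5974 in p53-loss-only leukaemias 1 to 4. The p53-loss-only replicate 3 was close to the highest 11B3-deleted library. The log2 difference was -2.08 (SE 0.62, 95% interval -3.49 to -0.67), or 23.7% of the p53-loss-only geometric mean.

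Junb, a Jun protein that often opposes Jun, was at 2621.4, 3855.7, 2000.6 and 1539.1 against 7493.4, 4518.4, 3697.4 and 2985.9, with overlap (log2 difference -0.9, SE 0.35, 95% interval -1.68 to -0.11). Jund, the Jun protein present in most resting cells, was at 1466.4, 1688.4, 1494.6 and 869 against 3277.2, 1772.5, 1585.5 and 1331.1. Its groups overlapped (log2 difference -0.48, SE 0.32, 95% interval -1.2 to 0.23), and the difference was -0.21 without p53-loss-only replicate 1 and -0.27 without 11B3-deleted replicate 4. In all 3 Jun genes the highest library was p53-loss-only replicate 1 and the lowest was 11B3-deleted replicate 4.

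Egr1, Atf3 and Dusp1 stand outside the Fos and Jun families. Egr1, a zinc finger factor, was at 1125.7, 427.1, 1574.1 and 458.1 in the 11B3-deleted leukaemias 1 to 4, versus 2055.7, 3637.6, 357.4 and 2075.4 in p53-loss-only leukaemias 1 to 4. Its lowest library of all was p53-loss-only replicate 3, in which Fos was at 8683.2 (Egr1 log2 difference -1, SE 0.72, 95% interval -2.62 to 0.62). The Egr1 difference was -0.58 without p53-loss-only replicate 2 and -1.7 without p53-loss-only replicate 3. Atf3, a zipper protein that is induced by stress and can pair with Jun, was at 94.7, 395.9, 31 and 129.7 against 405.9, 175.3, 42.7 and 93.6. Atf3 overlapped throughout (log2 difference -0.23, SE 0.87, 95% interval -2.19 to 1.73), and the sign turned without 11B3-deleted replicate 3 (0.38) or without p53-loss-only replicate 1 (0.32).

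Dusp1 was at 981.2, 1457, 927.6 and 890.3 in the 11B3-deleted leukaemias 1 to 4, versus 4788.1, 3795.4, 1780.7 and 1304.4 in p53-loss-only leukaemias 1 to 4. Only p53-loss-only replicate 4 fell inside the range of the other group. The log2 difference was -1.29 (SE 0.41, 95% interval -2.21 to -0.37), or 40.9% of the p53-loss-only geometric mean.

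**Figure D1:**
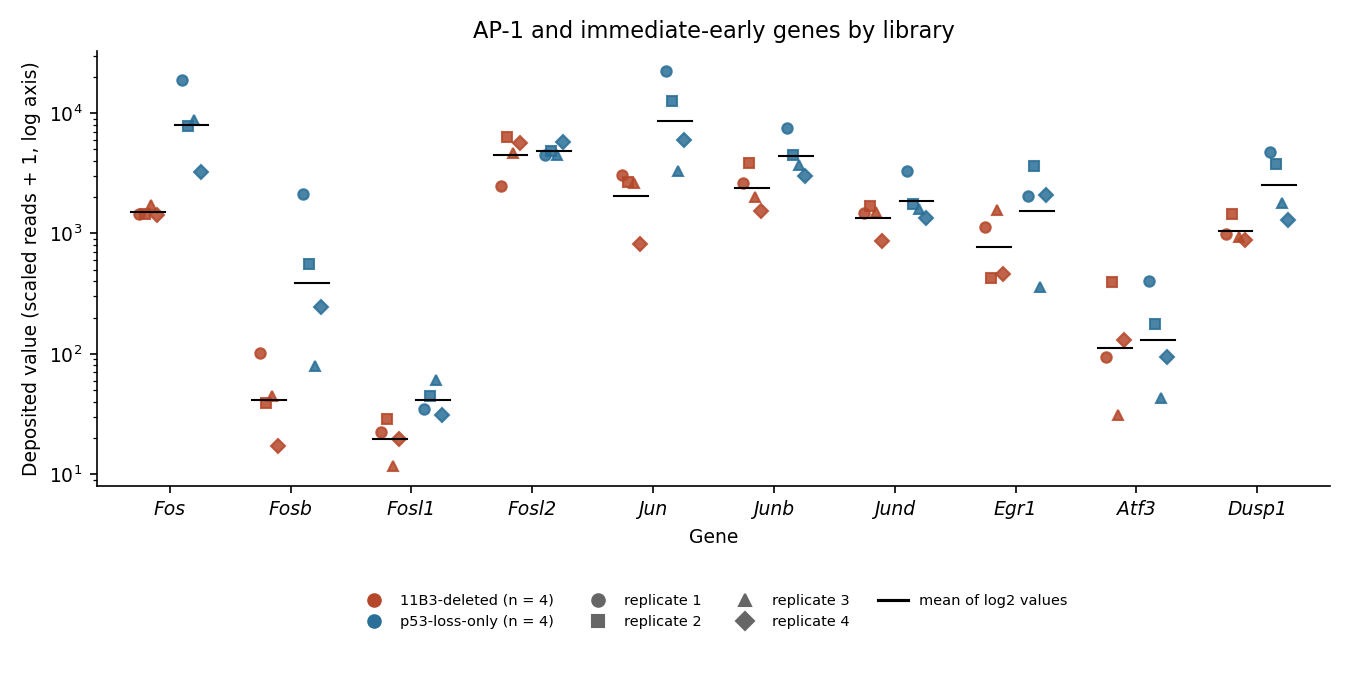
Deposited value (scaled reads plus 1, log axis) of each of the 10 genes, with 1 point per library, marker shape for the replicate number and a bar at the mean of the log2 values of the 4 libraries. Fos, Fosl1 and Jun have no overlap between the genotypes, whereas Fosl2 and Atf3 overlap throughout.

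Counted together, 10 of 10 genes had a lower mean log2 value in the 11B3-deleted group, where 48.4% of all tested genes did. The median log2 difference was -1.04 over the 10 and 0.01 over all tested genes. In 3 of 10 (Fos, Fosl1 and Jun) every 11B3-deleted library lay below every p53-loss-only library, where 1.23% of all tested genes showed that. At an unadjusted p under 0.05 there were 6 of 10, all lower (2.38% of all tested genes). After Benjamini-Hochberg adjustment over all genes limma called 0 of the 10 and 0.0136% of all genes, edgeR called 0, and DESeq2 called 3 (Fos, Fosb and Jun; 0.434% of the 13350 genes to which it gave an adjusted p). Because the genes were chosen with this contrast known, nothing is read from these counts. The library of the highest value was p53-loss-only replicate 1 in 7 of the 10 genes, and that of the lowest was 11B3-deleted replicate 4 in 6. Bulk RNA does not tell fewer expressing cells from less RNA per cell.

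Levels of different genes were compared per kilobase of exon, with lengths from GENCODE M21, an annotation of another build than the authors' mm9. On that scale of reads per kilobase the 11B3-deleted libraries were led by Junb at 1088 ± 436 and Jund at 827 ± 212, then Jun at 719 ± 316 and Fos at 639 ± 58.1 (SD, n = 4 each). Fosl2 at 494 ± 174, Dusp1 at 321 ± 79.9 and Egr1 at 200 ± 124 followed (SD, n = 4 each). Atf3 at 75.1 ± 74.6, Fosl1 at 9.69 ± 3.53 and Fosb at 7.96 ± 5.85 were lowest (SD, n = 4 each). In that order the libraries of each gene overlapped those of the next, except that every Atf3 value lay above every Fosl1 value.

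The p53-loss-only libraries had another order. Per kilobase Fos came first at 4103 ± 2813 and Jun second at 3483 ± 2690, followed by Junb at 2031 ± 861 and Jund at 1193 ± 525 (SD, n = 4 each). Dusp1 was at 881 ± 498, Fosl2 at 504 ± 62.5 and Egr1 at 453 ± 299, and Fosb at 120 ± 149 lay above Atf3 at 82.8 ± 74.6 and Fosl1 at 20.5 ± 6.43 (SD, n = 4 each). Each gene's libraries overlapped those of the next in this order.

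The makeup of each family differed along with its total. Within the Fos family, Fos gave 68.3%, 47.6%, 59.6% and 50.5% of the reads per kilobase in 11B3-deleted leukaemias 1 to 4, versus 90.7%, 84.4%, 88% and 68% with p53 loss alone. Fosl2 gave nearly all the rest, 41.9% ± 10.1 with 11B3 deleted versus 14.6% ± 10.4 with p53 loss alone (SD, n = 4 each). The ratio of Fos to Fosl2 per kilobase ran from 0.935 to 2.38 in the first group and from 2.31 to 17.3 in the second, overlapping only between 11B3-deleted replicate 1 and p53-loss-only replicate 4.

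Jun gave 26.4% ± 7.01 of its family's reads per kilobase with 11B3 deleted versus 47.5% ± 13.4 with p53 loss alone (SD, n = 4 each), overlapping through p53-loss-only replicate 3 at 28.8%. Jund gave 32.2% ± 3.64 against 19.4% ± 5.16 (SD, n = 4 each), and its shares did not overlap. Junb gave 41.4% ± 6.66 against 33% ± 8.26 (SD, n = 4 each). The summed level of the Fos family was 1151 ± 174 against 4747 ± 2906 reads per kilobase, and that of the Jun family 2634 ± 881 against 6707 ± 4021 (SD, n = 4 each). These shares follow from the same values as the differences above and carry no test.

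**Figure D2:**
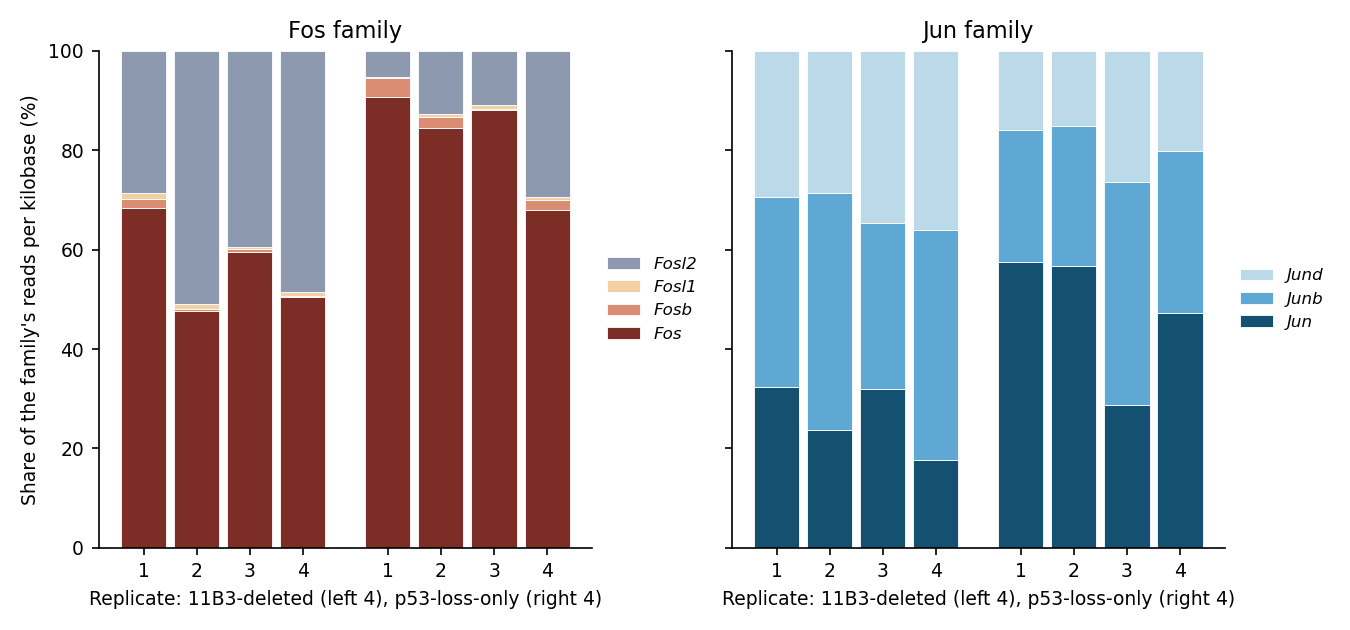
Share of each family's reads per kilobase of exon (percent, bars from 0 to 100) given by each gene, with 1 bar per library, the 4 11B3-deleted libraries on the left and the 4 p53-loss-only libraries on the right of each panel. Fosl2 takes 28.7% to 50.9% of the Fos family in the 11B3-deleted libraries and 5.24% to 29.4% in the others.

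Variation within each genotype was not itself used to choose the genes. Choosing on the genotype difference may still favour genes that share a high library, which would raise their correlations within genotypes. The library p53-loss-only replicate 1 held the highest value of 7 of the 10 genes. How far the choice affected these correlations was not tested. Variation within genotypes was examined by subtracting each genotype's mean log2 value and correlating the 45 pairs over the 8 libraries. Of the 45 pairs, 32 had a positive r and the median was 0.32. Adjusted over the 45 by Benjamini-Hochberg, 0 passed (exact permutation within genotypes, two-sided, 576 arrangements, smallest adjusted p = 0.0781), and 5 had an unadjusted p under 0.05. The smallest p that these arrangements allow is 0.00174. A lone pair at that p could not pass after adjustment over the 45, so 0 passing does not show that no pair was related.

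The 3 pairs with the smallest p were Junb with Dusp1, Junb with Jund, and Fosb with Jun. Junb and Dusp1 had a within-genotype r of 0.84 (exact permutation p = 0.00174, adjusted p = 0.0781) and rho of 0.86 (exact permutation p = 0.00347, adjusted p = 0.156). Without the 2 libraries farthest from the median of Junb the r was 0.66. For this and the other within-genotype values without 2 libraries, the genotype means subtracted were still those of all 8 libraries. Such values may therefore hold some offset between genotypes. Junb and Jund had a within-genotype r of 0.91 (exact permutation p = 0.00347, adjusted p = 0.0781) and rho of 0.93 (exact permutation p = 0.0104, adjusted p = 0.156), with r at 0.84 without 2 libraries. Fosb and Jun had a within-genotype r of 0.95 (exact permutation p = 0.00694, adjusted p = 0.104) and rho of 0.98 (exact permutation p = 0.00694, adjusted p = 0.156), with r at 0.89 without 2 libraries.

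Within genotypes Fos had r of 0.76 with Dusp1, 0.75 with Jund, 0.64 with Junb, 0.52 with Fosb and 0.5 with Jun (exact permutation, adjusted p from 0.278 to 0.681). Without the 2 libraries farthest from the median of Fos, p53-loss-only replicates 1 and 4, these became -0.49, 0.2, -0.25, -0.29 and -0.09. None of the 5 relations kept its size without those libraries. Fos varied little within genotypes in the libraries left, so the new values cannot tell whether the relations hold there. Fos and Jun had a within-genotype r of 0.5 (exact permutation p = 0.378, adjusted p = 0.681) and rho of 0.34 (exact permutation p = 0.524, adjusted p = 0.841). Fos and Egr1 had a within-genotype r of -0.01 (exact permutation p = 0.944, adjusted p = 0.965) and rho of 0.05 (exact permutation p = 0.941, adjusted p = 0.985), with r at -0.03 without 2 libraries. Within the 11B3-deleted group the SD of log2 Fos was 0.13, the smallest of the 10 genes there, against 1.04 in the p53-loss-only group.

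Across the pairs a block of 6 genes (Fos, Fosb, Jun, Junb, Jund and Dusp1), picked out after the values were seen, had r between 0.5 and 0.95 in its 15 pairs. The other 30 pairs had r between -0.67 and 0.72. Fosl2 had a median r of -0.24 with the other 9 genes, Fosl1 of -0.02 and Egr1 of 0.08, while Atf3 had 0.48, with its highest r of 0.72 to Dusp1. Egr1 was nearest to Fosb (0.69) and Jun (0.68) and farthest from Fosl1 (-0.67).

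When the genotype means were kept in, 14 of 45 pairs passed (Pearson r, exact permutation over 40320 pairings, adjusted over the 45), all 14 within that block, and 2 passed by Spearman's rho. These pooled values hold the contrast that was known when the genes were chosen. They also rested on single libraries: the count was 1 without p53-loss-only replicate 1, 2 without p53-loss-only replicate 2 or without 11B3-deleted replicate 4, 6 without 11B3-deleted replicate 3 and 7 without 11B3-deleted replicate 1. For Fosb and Jun the pooled r was 0.98 (exact permutation p = 9.92e-05, adjusted p = 0.00223) and rho 0.95 (exact permutation p = 0.00114, adjusted p = 0.0257), with r at 0.93 without the 2 libraries farthest from the median of Fosb.

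**Figure D3:**
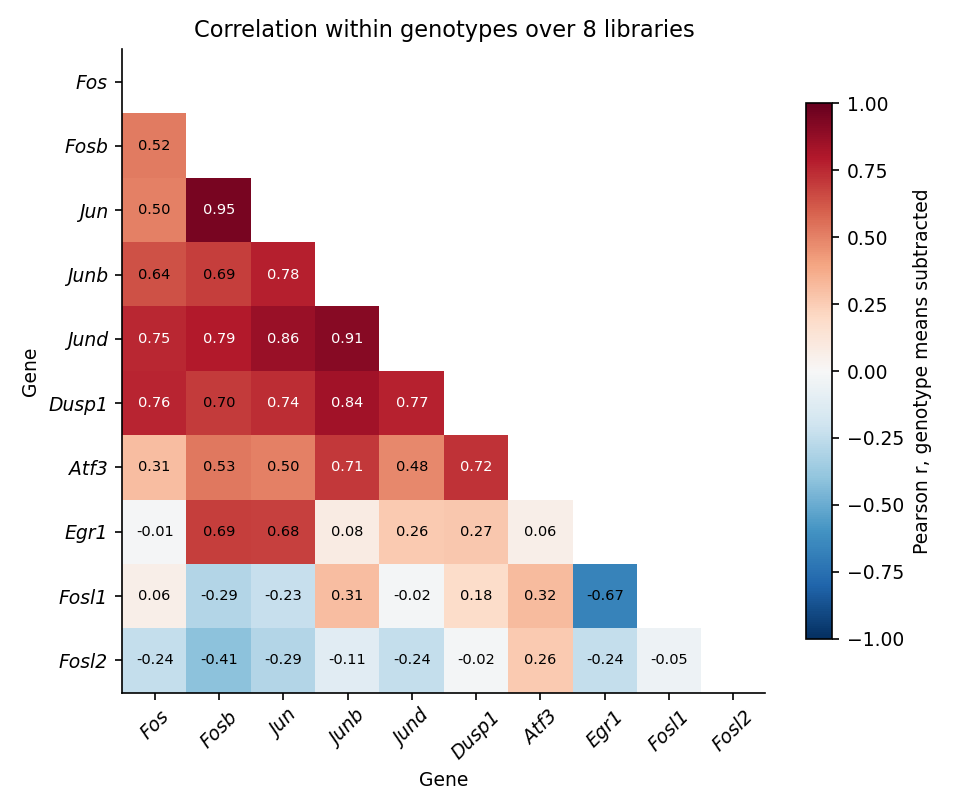
Pearson r of each of the 45 pairs over 8 libraries after subtracting genotype means (colour from -1 to 1, value in each cell), with the genes of the block first. The 15 cells of Fos, Fosb, Jun, Junb, Jund and Dusp1 range from 0.5 to 0.95, and the row of Fosl2 is mostly below 0.

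Other genes of the pathway were taken from 7 lists of 133 names, of which 131 had a row and 128 were tested. With limma 0 of the 128 passed over all genes (smallest adjusted p = 0.893), and edgeR called 0. A limma unadjusted p under 0.05 was found for 6, 5 of them lower. Over all 14679 tested genes 523 had one, 350 of them lower. DESeq2 called 1, where it called 0.434% of the genes to which it gave an adjusted p. A lower mean was found in 82 of the 128, or 64.1%, where 48.4% of all tested genes had one.

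Of the other immediate-early transcription factors, 0 of 16 passed, means were lower for 13 and higher for 3, and the median log2 difference was -0.15. Ier2 was at 2940 ± 541 against 4182 ± 1245 and Ier5 at 1254 ± 352 against 2706 ± 1474 (SD, n = 4 each; limma adjusted p = 0.996 for both). Egr2, a relative of Egr1, was at 16.9 ± 2.74 against 25.9 ± 9.84, and Klf4, a factor of monocyte differentiation, at 3163 ± 840 against 4098 ± 1278 (SD, n = 4 each; limma adjusted p = 0.996 for both).

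Immediate-early effectors and regulators of RNA decay had 20 of 25 members with a lower mean, a median log2 difference of -0.47 and 0 that passed. Rhob, a small GTPase, was at 6106 ± 2772 against 9468 ± 1194, and Sgk1, a kinase, at 743 ± 266 against 1097 ± 211 (SD, n = 4 each; limma adjusted p = 0.996 for both). Gadd45b, a stress adaptor of MAP kinase signalling, was at 670 ± 333 against 1197 ± 501, and Ppp1r15a, which restores translation after stress, at 664 ± 284 against 1351 ± 789 (SD, n = 4 each; limma adjusted p = 0.996 for both).

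The zipper proteins that can partner AP-1 had 15 of 21 members with a lower mean, a median of -0.13 and 0 that passed with limma. Maf was at 255 ± 123 against 376 ± 43.3, Batf2 at 88.8 ± 49.4 against 144 ± 68.8 and Atf2 at 1860 ± 457 against 1486 ± 442 (SD, n = 4 each; limma adjusted p = 0.996 for the 3).

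Upstream kinases and serum response factors showed a median of -0.07 over 24 genes, with 15 lower means and 0 passed. Elk3, a partner of serum response factor, was at 800 ± 328 against 1683 ± 1004, and Elk4, of the same kind, at 3444 ± 1246 against 2552 ± 909 (SD, n = 4 each; limma adjusted p = 0.996 for both). Mapk3, the kinase ERK1, was at 4027 ± 868 against 5341 ± 732 (SD, n = 4 each; limma adjusted p = 0.996).

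The other dual-specificity phosphatases did not share the sign of Dusp1 as a list: 4 of 9 had a lower mean, the median was 0.03 and 0 passed. Dusp6, which acts on ERK, was at 3038 ± 1187 against 4319 ± 2328, and Dusp3 at 1280 ± 467 against 1691 ± 257 (SD, n = 4 each; limma adjusted p = 0.996 for both). Dusp5 was at 249 ± 283 against 256 ± 98.1 and Dusp16 at 341 ± 289 against 271 ± 263 (SD, n = 4 each; limma adjusted p = 0.996 for both).

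Genes known as AP-1 targets had 11 of 19 lower means, a median of -0.08 and 0 that passed. Mmp13, a collagenase, had the higher mean in the 11B3-deleted group, at 574 ± 271 against 226 ± 109, and Ccnd1, the cyclin D1 gene, the lower one, at 1609 ± 432 against 3040 ± 1631 (SD, n = 4 each; limma adjusted p = 0.996 for both). Lgals3, a lectin, was at 12969 ± 7680 against 18402 ± 2609 (SD, n = 4 each; limma adjusted p = 0.996). Spp1, which encodes osteopontin, was at 928.5 to 1338.6 in the 11B3-deleted leukaemias 1 to 4, versus 1273, 2284.4, 5109.7 and 88354.5 in p53-loss-only leukaemias 1 to 4 (limma adjusted p = 0.996).

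**Figure D4:**
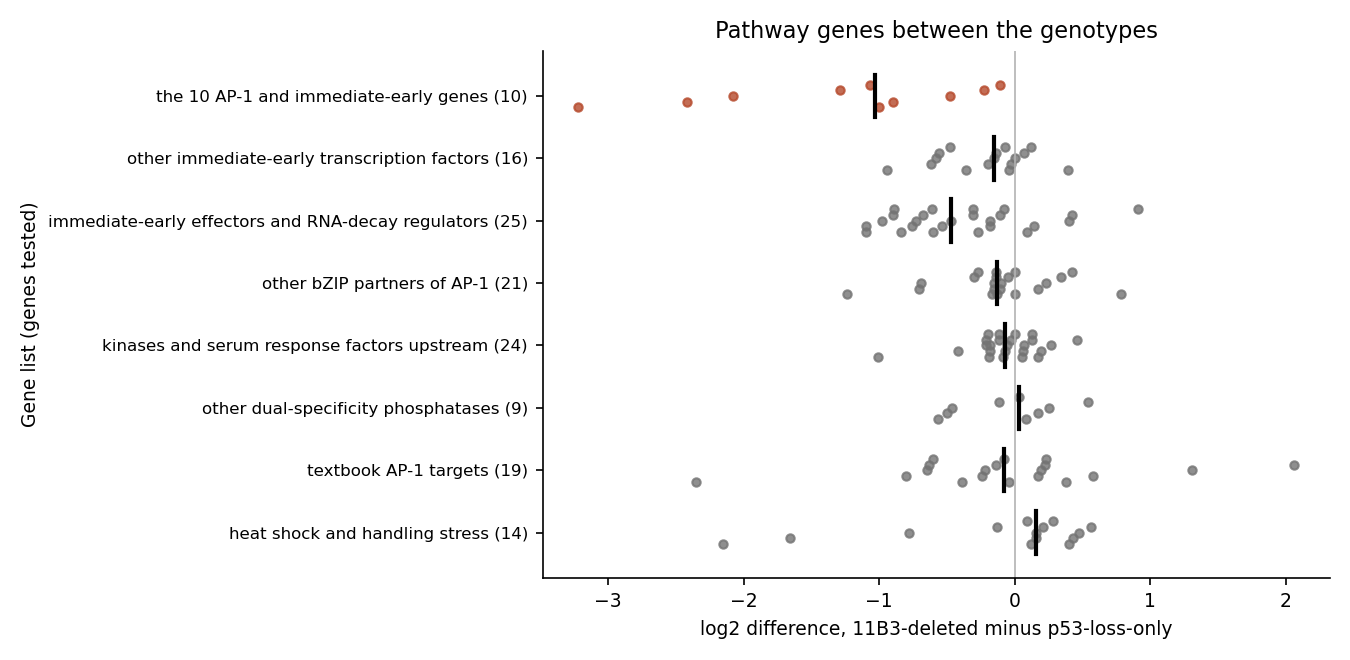
Log2 difference (11B3-deleted minus p53-loss-only) of each tested gene of the 7 lists, with the 10 genes described here on top, a black bar at each median and the number of genes tested in brackets. The medians of the lists lie between -0.47 and 0.16, and that of the 10 genes is -1.04.

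Heat shock genes, which respond to handling and proteotoxic stress, had 4 of 14 lower means, a median of 0.16 and 0 that passed. Within that list Hspa1a was at 95.7, 9.6, 29.1 and 5.4 in the 11B3-deleted leukaemias 1 to 4, versus 184.5, 137.7, 37.2 and 59.6 in p53-loss-only leukaemias 1 to 4, and Hspa1b at 208, 26.8, 61.1 and 25.9 against 216.6, 282.6, 30.6 and 474.9. These near-identical inducible chaperone genes can share reads, and neither passed (limma adjusted p = 0.996 for both). Dnajb1 was at 2030 ± 178 against 1685 ± 301 and Hspd1, a mitochondrial chaperone, at 10334 ± 7485 against 5929 ± 1211 (SD, n = 4 each; limma adjusted p = 0.996 for both). The part of handling in the values of the 10 genes was not tested.

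To see which genes followed the 10 between libraries, each gene's log2 values were correlated within genotypes with the mean standardised value of the 10. Genotype means were subtracted before that mean was taken, so it gives deviations within a genotype and not levels across the 8 libraries. As a deviation it was highest in p53-loss-only replicate 1 (1.1) and 11B3-deleted replicate 2 (0.66). It was lowest in p53-loss-only replicates 3 and 4 (-0.73 and -0.74). The list of effectors had a median r of 0.46 and the other immediate-early factors 0.37, against 0.02 over all tested genes. The r was above 0 for 21 of 25 effectors and 13 of 16 other immediate-early factors, against 51.2% of all tested genes. Zfp36, whose protein speeds the decay of short-lived RNAs, had r of 0.89, Ier5 0.85 and Ier2 0.84, high values singled out after they were seen. On the same lists Gadd45b had 0.25, Rhob -0.19 and Zfp36l2, a relative of Zfp36, -0.41. The lists of zipper partners (-0.05), upstream kinases (-0.05), phosphatases (-0.17), targets (0.15) and heat shock genes (-0.16) had medians near 0. These are descriptions over 8 libraries that share 1 reference mean.

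Outside the lists, the genes most like that mean, with r over 8 libraries after subtracting genotype means, were Rab11b-ps2 (0.951), Fam83e (0.951), Sirpb1c (0.931), Kdelr3 (0.919), Gnb5 (0.908), AI480526 (0.906), Fgr (0.898) and Spsb1 (0.898). Fgr, a Src-family kinase of myeloid cells, was at 1610.9, 2768.8, 1193.2 and 1921.6 against 4752.2, 3378, 1400.2 and 1430.1. Sirpb1c, a signal-regulatory receptor gene, was at 928.5, 1191.2, 630.1 and 652.5 against 2048.9, 1643.2, 1040.5 and 1169.2. Rab11b-ps2 is a pseudogene and Sirpb1c has near-identical relatives, so reads of either may come from their copies. With 8 libraries and 14679 genes, values of r this high are a ranking and no more.

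Marker genes of the cell types that the marrow could contribute are given beside these results. Summed levels of 18 monocyte and macrophage genes ranged from 205125 to 432867 in the 11B3-deleted libraries and from 281256 to 519775 in the p53-loss-only libraries. Of the 18, 12 had a lower mean in the 11B3-deleted group and 0 passed, and Lyz2, the most abundant, was at 103707.3 to 270016.2 against 182156.5 to 274936.3. Klf4 is on this list too. Summed levels of 15 granulocyte genes ranged from 547955 to 1449378 against 724376 to 1552508, with 9 of 15 lower, led by Chi3l3, and those of 12 erythroid genes from 12274 to 165393 against 2776 to 41708, with 0 of 12 lower, led by Car1.

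The remaining marker lists were lower in sum. The 11 B cell genes, led by Cd79b, ranged from 405 to 58774 in the 11B3-deleted group against 425 to 2201, with 0 of 11 lower. Summed levels were 390 to 2123 against 832 to 1455 for 10 T and NK cell genes, led by Nkg7, with 6 lower, and 215 to 2169 against 383 to 1490 for 8 megakaryocyte genes, led by Itga2b, with 1 lower. Those of 10 stroma and endothelium genes, led by Pecam1, were 2727 to 15526 against 5603 to 7576, with 2 lower. Among 8 stem and progenitor genes, led by Myb, 5 were lower (25884 to 44324 against 26821 to 55103), and among 4 general blood cell genes, led by Itgam, 4 were lower (20557 to 49510 against 29478 to 55977). Of those blood cell genes, Sfpi1 and Cd33 each had a log2 difference of only -0.02. Beside all these marker counts, 48.4% of all tested genes had a lower mean. In every list the summed ranges of the genotypes overlapped, no list held a gene at 3 reads or fewer in all libraries, and 0 marker genes passed with limma. Sums follow the most abundant genes, such as Lyz2, and can hide others. Cx3cr1 of the monocyte and macrophage list, singled out after its values were seen, was at 82.8 to 1236.5 against 2281 to 3890.4, without overlap. On that list 12 of 18 genes had a lower mean and the rest a higher one. Without 11B3-deleted replicate 3, the library rich in B cell RNA, Fos had the log2 difference -2.48 and Jun -2.2. Without 11B3-deleted replicate 1, the library richest in erythroid RNA, Fos had -2.4, Jun -2.27 and Fosl2 0.18. The part of cell makeup in the values of the 10 genes was not tested.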

How the data were processed

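Total RNA of 8 leukaemia libraries was sequenced by the authors, and each library's deposited table gives 1 signal value per gene. Per the submitters' processing notes, STAR, HTSeq, DESeq and mm9 (a mouse genome build) belonged to the pipeline; for their roles, versions and strand setting the sources used here give nothing. Within a library, every deposited signal value less 1 is some whole number times a constant, so the values are read counts scaled for library size with 1 added. Whole reads were recovered from 100% of values (tolerance 0.02), on which edgeR called 1 gene; 3 reads correspond to values of 3.66 to 4.29. Groups came from the sample titles. Since the values are not counts, limma with a mean-variance trend was fitted to log2 of the deposited value (the deposited 1 is the pseudocount, so low genes' folds are understated). It used genes reaching 10 in 4 or more libraries, group as the only term, and Benjamini-Hochberg adjustment over all genes at 0.05. The procedures were tested on simulated data. Libraries all differed beyond counting error (smallest chi-square over its degrees of freedom 86.8). That does not show that they came from separate animals. Each counted as 1 replicate. The genes and lists were chosen with earlier results of these data known. Text names all 10 genes, of each list the 4 with the smallest p, the 8 genes most like the mean of the 10 (without predicted genes) and each marker list's most abundant gene; list genes that the rule names but that are withheld are not reported here. List names Egr4 and Atf7 matched no single row. Promoters are from RefSeq. Alternatives were TMM scaling, filters, a constant of 5, edgeR, DESeq2, each library left out and a replicate block; leaving libraries out of the pooled correlations was chosen after seeing the data. Software was Python 3.11.15 with scipy 1.17.1, and limma 3.58.1, DESeq2 1.42.0 and edgeR 4.0.16 under R 4.3.3.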

Additional observations from a re-analysis of the deposited data

Results flagged for a closer look

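Within the 11B3-deleted group the Fos value of replicate 3 (1707.9) stood above the other 3, at a gap of 0.871 of the group's range on the log2 scale; the whole range of Fos there was 1.21-fold. Jun in 11B3-deleted replicate 4 (814.9) stood below the other 3 at a gap of 0.885 of the range. Both gaps pass Dixon's critical value for 4 samples at the 95% level. In 20 groups of 4 examined, chance flags about 1 in 20.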

How the results depend on the processing

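The number of genes called over all genes was 2 with limma. It was 1 with a minimum value of 50, with a constant of 5 and with edgeR, 58 with DESeq2, 0 with the replicate block, and 0 to 1 with single libraries left out. Of the 10 genes, 0 were called except with DESeq2 (3), and 0 when any library was left out. Of the pathway lists DESeq2 called 1 gene. The cause of DESeq2's larger counts was not tested. In 149 alternatives over the 10 genes the sign was kept in 146. It turned for Fosl2 without 11B3-deleted replicate 1 (0.18; -0.27 to 0.18 over all left-out libraries) and for Atf3 without 11B3-deleted replicate 3 (0.38) or p53-loss-only replicate 1 (0.32; -0.84 to 0.38 over all). Fosl1 was not tested with the minimum value of 50. Of the 45 pairs, 0 passed within genotypes under rank correlation, TMM scaling, the constant of 5 or any left-out library, and 14 passed when pooled (1 to 13 with a library left out). Within genotypes a left-out library leaves fewer arrangements and a larger smallest p. A pair could then pass only if several others were also at that p, so these counts of 0 show no stability. With the replicate block 5 of the 10 genes had an unadjusted p under 0.05, and 375 of all genes. The numbers were not taken as pairs: same-numbered libraries' deviations correlated at -0.03, -0.217, -0.414 and -0.243, and no 11B3-deleted library correlated best with its own number. The count of reads limits Fosb and Fosl1 most, at lows of 18 and 11 reads.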

Other observations

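The ratio of Fos to Egr1 per kilobase of exon differed widely between libraries of 1 genotype. It was 17.5, 4.07, 46.4 and 2.97 in p53-loss-only replicates 1 to 4 and 2.44, 6.48, 2.07 and 5.9 in 11B3-deleted replicates 1 to 4. Ccl3, a chemokine gene of activated myeloid cells, was at 5652.3 in p53-loss-only replicate 1, the library in which 7 of the 10 genes were highest, and at 354.8 to 1545 in the other 7 libraries. Ccl3 was singled out after its values were seen. On its list of effectors Zfp36 and Trib1 were also highest in that library. Others were not: Il1b was highest in p53-loss-only replicate 2 (201), Nfkbia in p53-loss-only replicate 3 (8474.9), and Socs3 (1693.8) and Pim1 (7335.9) in 11B3-deleted replicate 2.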
